A study of Mus musculus with 6 samples.

Results

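The connecting cilium genes described here are 43 genes chosen by name, of 49997 genes counted in the series. They encode subunits of the intraflagellar transport (IFT) complexes, the BBSome and its folding helpers, kinesin motors, proteins of the ciliary transition zone, and carriers of lipid-modified proteins. All 43 names were found in each library, and all 43 passed the filter on low counts, as did 17138 genes in all. RNA was counted in 3 libraries from mice given a guide RNA against Nr2e3 (guide libraries) and in 3 from mice given a non-targeting control guide (control libraries), 1 mouse and 2 retinas per library. All 6 mice were of the Rosa26-Cas9 strain, which expresses SpCas9 in all cells, and all received the virus under the retina, at postnatal day 21 by the series text or at 4 weeks by the treatment protocol. About 100000 mCherry-positive cells per library were sorted 6 months after injection. A human GRK1 promoter drove mCherry in photoreceptors, so the sort selected cells that had taken up virus, not cells in which Nr2e3 was shown to be cut. Guide replicate 1 was male, guide replicates 2 and 3 were female and the 3 control mice were male.

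The outer segment of a rod or cone is a modified primary cilium, joined to the cell body by a narrow connecting cilium that corresponds to a long transition zone. IFT-B with kinesin-2 motors carries cargo towards the tip, IFT-A with a dynein motor serves the return, and the BBSome rides with these trains and removes membrane proteins that do not belong in the outer segment. Proteins with a lipid tail, such as transducin and phosphodiesterase subunits, reach the cilium on the carriers UNC119 and PDE6D, which the small GTPase ARL3 unloads. Loss of many of these genes is known as a cause of retinal dystrophy, alone or as part of a ciliopathy.

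What the genes share in their promoters was read first, since the choice of genes did not use it. RFX factors, which switch on ciliary genes, bind a motif called the X-box, searched here on either strand as the half-sites GTNNCC and GGNAAC with any 2 bases between them. RefSeq promoters on GRCm38.p6, 300 bases each, were listed for 40 of the 43 genes, and 7 of these 40 (17.5%) held the motif, against 403 of 27025 genes (1.49%) with a listed promoter. The 8 matches are shown on the gene's own strand with 8 bases to either side and the 14 bases of the motif in capitals. All hold the half-sites because the search required them. For Bbs1, Ift57 and the upstream match of Ift22, the motif fits only when read on the opposite strand.
Ahi1, chr10:20952560-20952589, plus strand: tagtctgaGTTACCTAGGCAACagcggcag
Bbs1, chr19:4906605-4906634, minus strand: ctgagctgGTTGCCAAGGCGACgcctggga
Bbs4, chr9:59353464-59353493, minus strand: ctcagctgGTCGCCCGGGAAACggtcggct
Bbs7, chr3:36613489-36613518, minus strand: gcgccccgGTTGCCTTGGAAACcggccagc
Ift22, upstream match, chr5:136908079-136908108, plus strand: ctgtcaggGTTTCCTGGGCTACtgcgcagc
Ift22, downstream match, chr5:136908109-136908138, plus strand: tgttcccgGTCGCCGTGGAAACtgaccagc
Ift57, chr16:49699199-49699228, plus strand: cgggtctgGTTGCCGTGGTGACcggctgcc
Nphp4, chr4:152477903-152477932, plus strand: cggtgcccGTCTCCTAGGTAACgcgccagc

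The matches in Ahi1, Bbs1 and Bbs4 lie just past a listed start, in annotated exon for all or most of their 30 bases, and the other 5 lie before a listed start and outside the gene's exons in GENCODE M21. The photoreceptor homeobox motif TAATCC, searched on either strand, was present for 3 of the 40 genes (7.5%), namely Bbs1, Rpgrip1 and Unc119, against 8.14% of all genes with a listed promoter. A match is a run of letters and not a measured binding site.

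Depth was 24705561 to 33098812 gene counts in guide and 32626751 to 34286248 in control libraries, and the lowest count of any of the 43 genes was 33, for Kif17 in control replicate 1. Levels are given in CPM, the count of a gene relative to the normalised total of its library. Nr2e3 itself lay at 1906 to 2244 CPM with the Nr2e3 guide and 1507 to 1756 CPM with the control guide, a level that does not read insertions or deletions and so does not check the labels. Rod markers were abundant in every library, with Sag, the rod arrestin, at 30713 CPM in control replicate 3 and 34311 to 36892 CPM in the other 5. Control replicate 3 stood apart, since its 8 microglia markers summed to 244 CPM against 24.1 and 25.7 CPM in the other controls, and its 10 cone markers to 3801 against 7867 and 8316 CPM. Its sum of 8 Muller glia markers was higher (1112 against 708 and 675 CPM). Its sums for amacrine (112 against 213 and 210 CPM) and ganglion cells (16.3 against 45.9 and 69.8 CPM) were lower. In guide libraries these 3 sums were 795 to 1273, 51.5 to 206 and 18.7 to 51.0 CPM, and microglia markers summed to 27.9 to 144 CPM. The Muller glia markers did not move together. Rlbp1 was at 37.5 CPM in control replicate 3 against 71.7 and 92.5 CPM in the other controls, and Glul at 61.0 against 123 and 121 CPM. Cone markers summed to 13374 to 17218 CPM in guide libraries, above all 3 controls, but not every cone marker was higher. Gnat2 was at 7130 to 8413 CPM with the Nr2e3 guide and 184 to 1125 CPM with the control guide. Arr3 was at 610 to 1012 CPM with the Nr2e3 guide and at 1262, 1374 and 388 CPM in control replicates 1 to 3. The 6 pigment epithelium markers summed to 1.13 to 3.97 CPM in guide libraries, below the 5.18 to 17.4 CPM of the controls. Of 10 markers of multiciliated cells none was at 0 in all 6 libraries, their sum was 17.9 to 25.3 CPM in 5 libraries and 38.3 CPM in control replicate 3, and Foxj1, their defining factor, was at 0.0379 to 0.747 CPM. The part of these other cells in the results below was not tested.

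**Figure D1:**
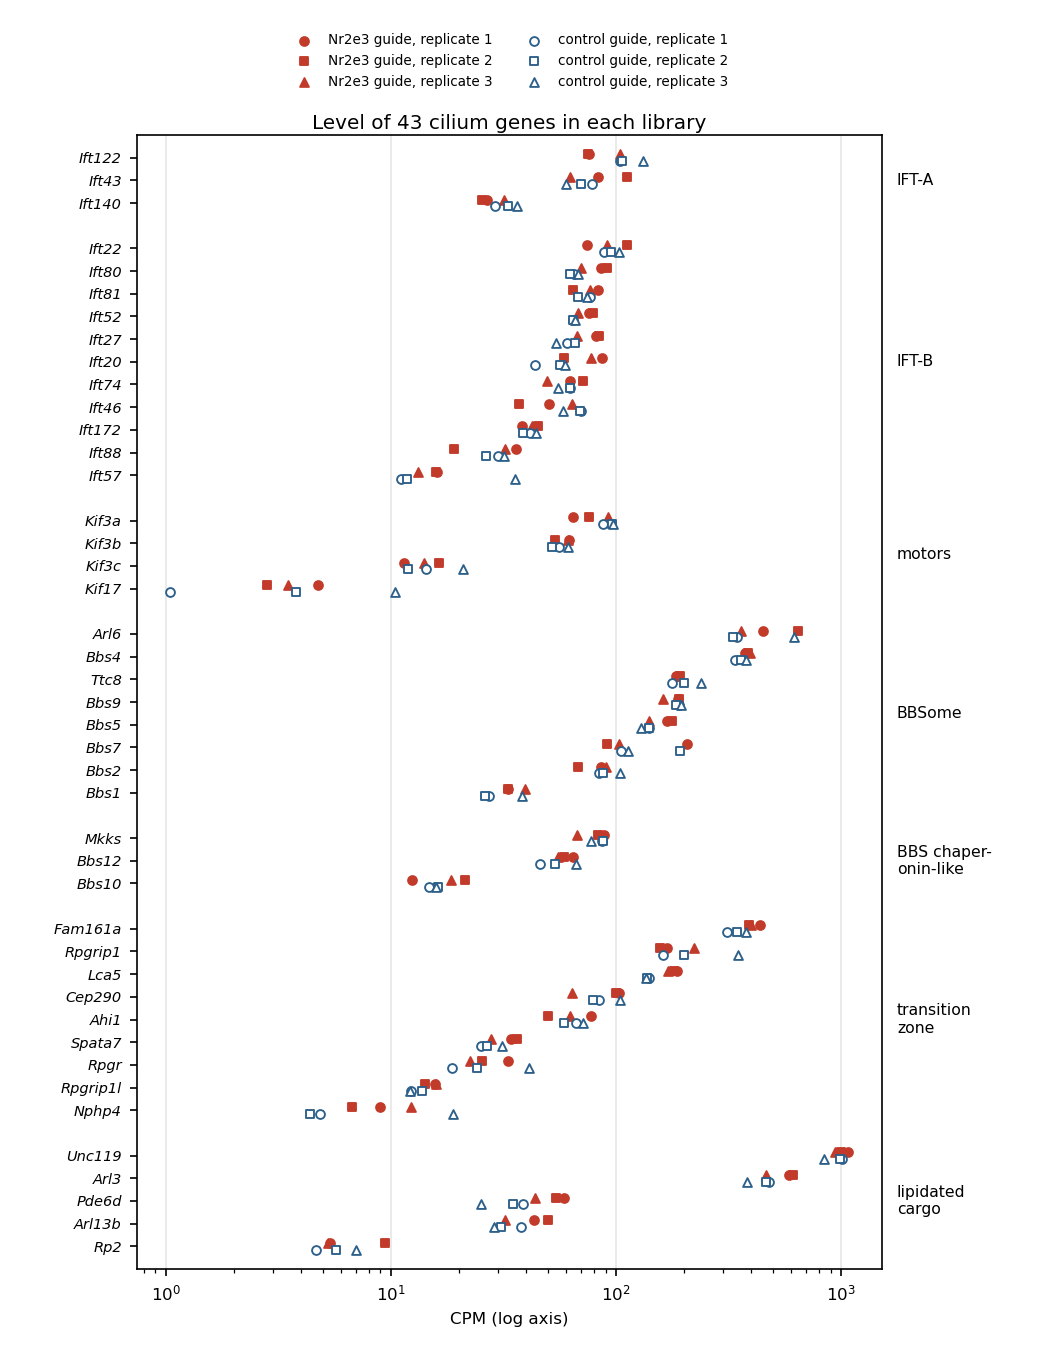
Level of each of the 43 genes in CPM on a log axis, with filled red symbols for guide and open blue symbols for control libraries, and circles, squares and triangles for replicates 1, 2 and 3. Unc119 is at the top of the range and Kif17 at the bottom, and for most genes the red and blue symbols are mixed, with control replicate 3 to the right for Ift57, Kif17, Rpgrip1 and Nphp4.

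The comparison of the groups asks whether the transport machinery of the outer segment differed 6 months after a guide against Nr2e3 was delivered. None of the 43 genes passed the test of a difference between groups. With p-values of the edgeR quasi-likelihood test adjusted by Benjamini-Hochberg over all genes tested, 0 passed 0.05, where 0.344% of all genes did (0.315% higher and 0.0292% lower). The count was also 0 by DESeq2 without a count filter, where 0.755% of all genes passed, by DESeq2 on the genes edgeR tested, where 1.59% did, by limma-voom, where 1.04% did, and by edgeR without control replicate 3, where 0.5% did. At an unadjusted p under 0.05 there were 6 of the 43 genes by edgeR (14.0%, against a background of 5.69%). There were 2 by DESeq2 without a count filter (background 3.9%), 5 by DESeq2 on the genes edgeR tested (6.85%) and 10 by limma-voom (11.5%). The 6 by edgeR were Ift20, Ift27, Ift80, Lca5 and Pde6d, each with a higher mean in guide libraries (background for this direction 3.08%), and Ift122 with a lower one (2.61%). The lowest adjusted p of the 43 was 0.520, for Lca5.

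Fold changes were small. The log2 fold change, guide over control, ran from -0.47 to 0.67 with a median of 0.03, where all genes tested had a median of -0.01, and 42 of the 43 estimates (97.7%) were within 1.5-fold, as were 79.4% over all genes. The median SE of the 43 was 0.18, against 0.36 over all genes, many of which have low counts. The estimate was above 0 for 24 of the 43 genes and below 0 for 19, where 48.5% of all genes were above 0. This split rested on control replicate 3: without it, 33 estimates were above 0 and 10 below, with a median of 0.16, where 50.9% of all genes were above 0 with a median of 0.01. The 95% interval lay inside a 2-fold change in either direction for 38 genes and inside a 1.5-fold change for 17. Those reaching past 2-fold were Ift57, Kif17, Rpgrip1, Nphp4 and Pde6d, the last of which had the largest estimate. Every guide library lay above every control library for 7 genes (16.3%), Ift27, Ift52, Ift80, Lca5, Fam161a, Rpgrip1l and Pde6d, against 6.2% of all genes and 7.49% of genes with a mean of at least 5 CPM. Every guide library lay below every control library for 0 of the 43, against 5.91% of all genes. The genes were measured in the same 6 libraries and are not independent of each other, and the cone marker sum, given above, was separate between the groups as well. Its part was not tested. In sorted bulk RNA, fewer cells of a type and less RNA per cell cannot be told apart.

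**Figure D2:**
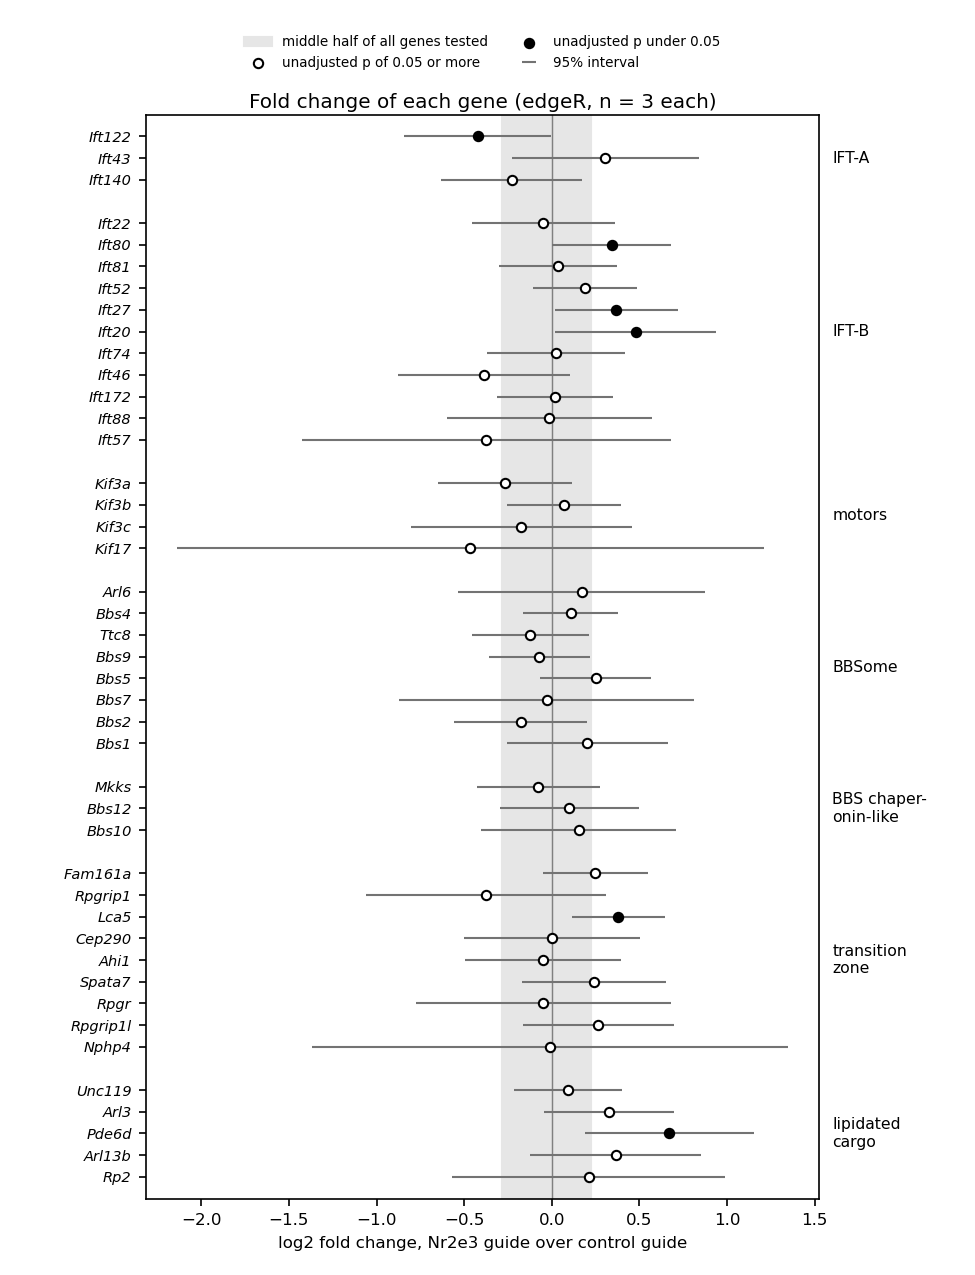
Log2 fold change of each gene, guide over control, with its 95% interval from the edgeR fit (n = 3 libraries each). The grey band spans the 25th to 75th percentile of all genes tested, and the 6 filled points mark an unadjusted p under 0.05. Intervals are widest for Kif17 and Nphp4.

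IFT-A, the complex of the return journey, is represented by Ift122, Ift140 and Ift43. Ift43, a small subunit, had the highest level per kilobase of exon of the 3 and was at 83.3, 112 and 62.3 CPM in guide replicates 1 to 3 and 78.1, 70.3 and 60.1 CPM in control replicates 1 to 3. The groups overlapped, with guide replicate 2 highest (log2 fold change 0.31, SE 0.23, edgeR adjusted p = 0.995), and without that library the estimate was 0.06. Ift122, a core subunit, was at 75.9, 75.5 and 104 CPM with the Nr2e3 guide and 104, 107 and 132 CPM with the control guide. Guide replicate 3 reached the lowest control (104.06 against 103.97 CPM), and the log2 fold change was -0.42 (SE 0.18, adjusted p = 0.874). For Ift140, another core subunit, the estimate was -0.23 (SE 0.17), so 2 of the 3 means were lower in guide libraries and 0 passed.

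Among the 11 IFT-B genes, the log2 fold change ran from -0.39 for Ift46 to 0.48 for Ift20 with a median of 0.03, and 0 passed. Ift20, the subunit that also sits at the Golgi and has the highest level per kilobase of these 11, was at 86.5, 58.7 and 77.7 CPM with the Nr2e3 guide and 43.7, 56.5 and 59.7 CPM with the control guide. Guide replicate 2 lay below control replicate 3, so the groups overlapped narrowly (SE 0.20, adjusted p = 0.856). Ift27, a Rab-like GTPase that links the train to the BBSome, was at 81.7, 84.4 and 67.3 CPM with the Nr2e3 guide and 60.5, 65.8 and 54.5 CPM with the control guide. Here the lowest guide library was just above the highest control library (log2 fold change 0.37, SE 0.15, adjusted p = 0.847).

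Ift80, a subunit of the peripheral IFT-B part, was at 86.3, 91.4 and 70.3 CPM with the Nr2e3 guide and 65.2, 62.4 and 68.1 CPM with the control guide (log2 fold change 0.34, SE 0.15, adjusted p = 0.874). Ift52, a core subunit, likewise did not overlap, at 68.0 to 79.2 against 64.6 to 66.1 CPM, with a log2 fold change of 0.19 (SE 0.13). Ift81 and Ift74, whose proteins pair to bind tubulin, had log2 fold changes of 0.03 in each case (SE 0.14 and 0.17), Ift172 0.02 (SE 0.14), Ift88 -0.01 (SE 0.25) and Ift22 -0.05 (SE 0.18). Ift88, known from the mouse model of polycystic kidney disease, had its lowest value in guide replicate 2 (19.1 CPM) and lay at 26.6 to 36.2 CPM in the other 5 libraries.

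The kinesin-2 motor is a heterotrimer whose motor subunits are KIF3A with KIF3B or KIF3C, and KIF17 is a homodimer of the same family. Kif3a, with the highest level per kilobase of the 4, was at 64.5, 76.2 and 92.8 CPM with the Nr2e3 guide and 87.5, 96.1 and 97.6 CPM with the control guide. Guide replicate 3 lay within the control range (log2 fold change -0.27, SE 0.16, adjusted p = 0.995). Kif3b was at 59.0 ± 4.53 and 56.3 ± 4.71 CPM (mean ± SD, n = 3 each) and Kif3c at 14.0 ± 2.46 and 15.8 ± 4.69 CPM. Of the Kif3c exon length, 35.3% overlaps 1110002L01Rik on the opposite strand, and these libraries do not mark strand. Overlaps with opposite-strand genes were smaller for Ift57 (7.86%, Gm15518), Rpgrip1 (8.70%, Supt16) and Cep290 (7.58%, 4930430F08Rik).

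Kif17 was the least even of the 43 genes, at 4.74, 2.83 and 3.50 CPM with the Nr2e3 guide and 1.05, 3.81 and 10.4 CPM with the control guide. Its spread was among controls, where control replicate 3 was 4.29 times the mean of the other 2, and the log2 fold change of -0.47 (SE 0.72) had a 95% interval from -2.14 to 1.21. Without control replicate 3 it was 0.60, on the other side of 0.

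The BBSome genes comprise 7 subunits and Arl6, the GTPase that recruits the complex to membranes. Their log2 fold changes ran from -0.18 for Bbs2 to 0.25 for Bbs5 with a median of 0.04, and 0 of the 8 passed, nor was any unadjusted p under 0.05. Bbs5, a subunit that binds phosphoinositides, was at 169, 177 and 141 CPM with the Nr2e3 guide and 140, 141 and 129 CPM with the control guide. The lowest guide value (140.9 CPM) fell just short of the highest control value (141.0 CPM), and the adjusted p was 0.969 (SE 0.14). The remaining subunits Bbs4 (0.11, SE 0.12), Bbs9 (-0.07, SE 0.12), Ttc8 (-0.12, SE 0.14) and Bbs1 (0.20, SE 0.20) had means within 1.5-fold of each other between groups.

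Arl6 and Bbs7 varied more between mice than between groups. Arl6 was at 451, 647 and 362 CPM with the Nr2e3 guide and 346, 332 and 618 CPM with the control guide, so the highest values belonged to guide replicate 2 and control replicate 3 (log2 fold change 0.17, SE 0.30, adjusted p = 0.995). The estimate was 0.52 without control replicate 3 and -0.09 without guide replicate 2. Bbs7, whose product is part of the BBSome core, was at 207, 91.3 and 104 CPM with the Nr2e3 guide and 105, 192 and 113 CPM with the control guide. Here guide replicate 1 and control replicate 2 were high and the other 4 libraries lay at 91.3 to 113 CPM (log2 fold change -0.03, SE 0.36). Without guide replicate 1 it was -0.49, and without control replicate 2 it was 0.30. The libraries that were high for Arl6 were thus not those that were high for Bbs7. Bbs7 was singled out after its values were seen.

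The chaperonin-like proteins help the BBSome to assemble. Mkks, highest of the 3 per kilobase, was at 88.5, 83.5 and 67.0 CPM with the Nr2e3 guide and 86.5, 87.9 and 77.7 CPM with the control guide (log2 fold change -0.08, SE 0.15, adjusted p = 0.995). Of its exon length, 29.3% overlaps another gene model on the same strand. Bbs10 was at 12.4, 21.5 and 18.5 CPM with the Nr2e3 guide and 14.8, 16.3 and 15.9 CPM with the control guide, with both its highest and its lowest value among guide libraries (0.15, SE 0.24). Bbs12 had a log2 fold change of 0.10 (SE 0.17).

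**Figure D3:**
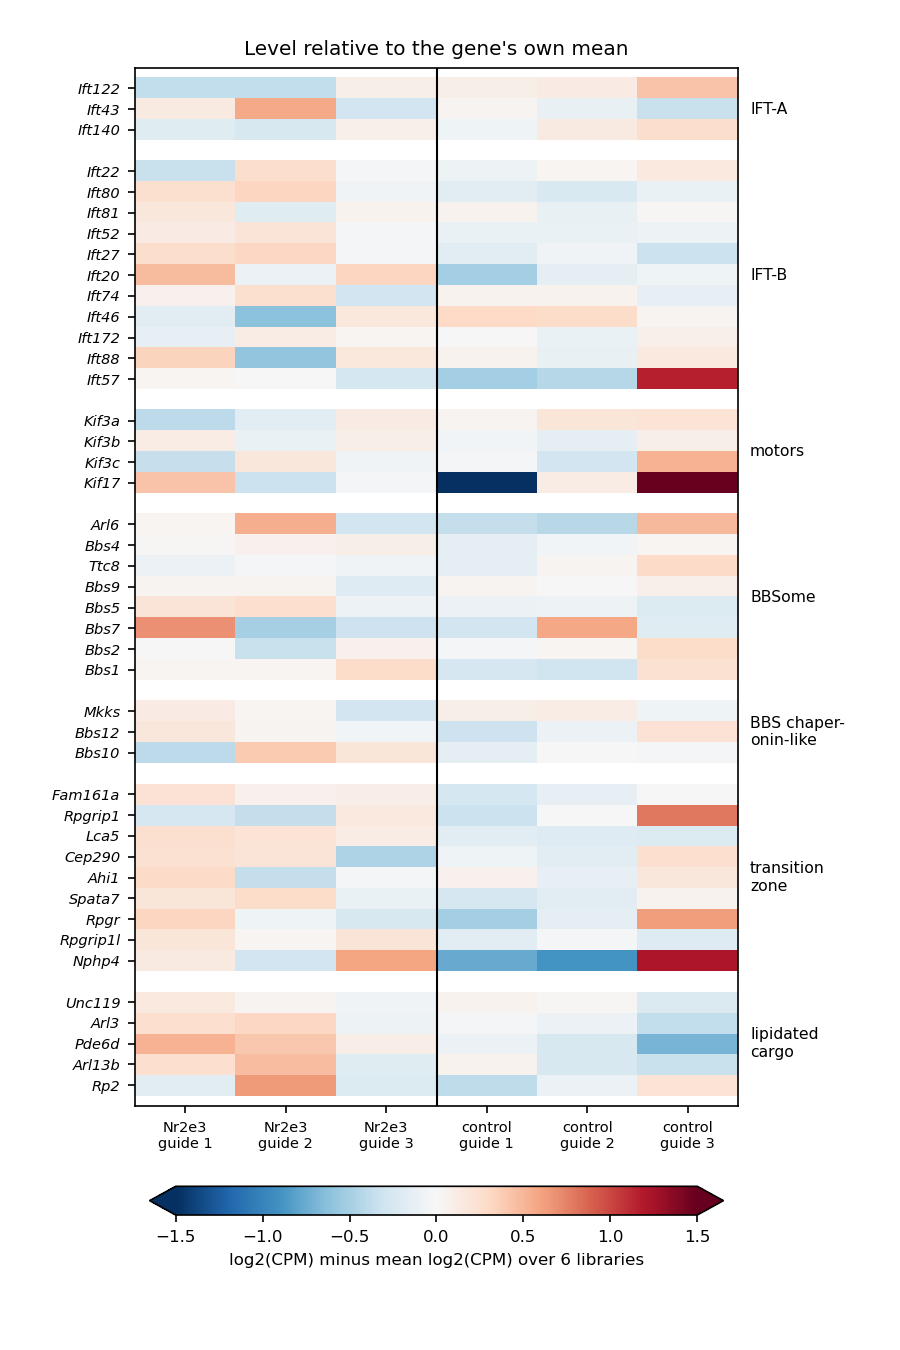
Each library's log2(CPM) minus the gene's mean log2(CPM) over the 6 libraries, with red above and blue below that mean. For most genes colour does not divide the libraries by group, since the groups overlap for 36 of the 43. The deepest red lies in control replicate 3, for Ift57, Kif17 and Nphp4, where the level was 3.11 to 4.29 times the mean of the other 2 controls.

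The 9 transition zone genes had log2 fold changes from -0.37 to 0.38, and 0 passed. Lca5 encodes lebercilin, which binds IFT proteins and is a gene of Leber congenital amaurosis. It was at 187, 182 and 170 CPM with the Nr2e3 guide and 140, 138 and 136 CPM with the control guide, so the groups were separate and the controls lay close together. The log2 fold change of 0.38 (1.30-fold, SE 0.11) had a 95% interval from 0.11 to 0.65 and an adjusted p of 0.520. Fam161a, a protein of the inner scaffold of the connecting cilium and the highest of these 9 per kilobase, was at 436, 392 and 400 CPM with the Nr2e3 guide and 312, 345 and 378 CPM with the control guide. The groups did not overlap, and the log2 fold change was 0.25 (SE 0.13, adjusted p = 0.957).

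The remaining transition zone genes showed no separation other than for Rpgrip1l, a low gene at 14.2 to 15.9 against 12.2 to 13.7 CPM (0.26, SE 0.18). Cep290, the large scaffold of the Y-shaped linkers, was at 103, 100 and 63.8 CPM with the Nr2e3 guide and 84.1, 78.9 and 104 CPM with the control guide, with a log2 fold change of 0.00 (SE 0.22). Spata7 was at 32.8 ± 4.35 against 27.8 ± 3.09 CPM and Ahi1 at 63.5 ± 14.1 against 65.7 ± 6.66 CPM (n = 3 each).

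Several transition zone values turned on control replicate 3. Rpgrip1, which anchors RPGR at the connecting cilium, was at 169, 157 and 223 CPM with the Nr2e3 guide and 161, 201 and 350 CPM with the control guide. Its log2 fold change of -0.37 (SE 0.29) was 0.01 without that library. Nphp4, a nephrocystin, was at 8.95, 6.70 and 12.3 CPM with the Nr2e3 guide and 4.83, 4.39 and 18.9 CPM with the control guide, and its fold change on the log2 scale, -0.01 (SE 0.58), became 1.01 without it (adjusted p = 0.414). Rpgr, the X-linked retinitis pigmentosa gene, was at 33.2, 25.4 and 22.4 CPM with the Nr2e3 guide and 18.7, 24.1 and 40.9 CPM with the control guide, with -0.05 (SE 0.31) against 0.33 without it. Gene counts do not separate the retinal isoform of Rpgr from the others. Ift57, an IFT-B subunit, behaved alike, at 13.2 to 16.1 CPM in guide libraries and 11.2, 11.8 and 35.7 CPM in control libraries, with -0.37 (SE 0.45) against 0.39 without that library. Kif17, Rpgrip1, Nphp4, Rpgr, Ift57 and Cep290, and Arl3 and Rp2 among the carriers of lipid-modified cargo, were described per library after their values were seen.

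Over all 43 genes, control replicate 3 lay above both other controls for 28 (65.1%) and below both for 12 (27.9%), where 42.4% and 41.9% of all genes tested did so. It was above for 4 of the 4 motors, 7 of the 9 transition zone genes and 6 of the 8 BBSome genes, and below for 4 of the 5 lipidated cargo genes. Of the 7 genes with an X-box match it was above both others for 6 and below for 0. Over all genes tested with such a match it was above for 53.4% of 234, and for 45.0% of the 11708 with a listed promoter and no match. Rfx2, an RFX factor that is not among the 43, was at 55.0 CPM in control replicate 3 and at 2.01 to 10.4 CPM in the other 5 libraries. Rfx1, Rfx3, Rfx5 and Rfx7 were at 20.2, 17.9, 5.48 and 11.3 CPM in control replicate 3, each within the range of the other 5 libraries. Of the 5 RFX factors, Rfx2 included, control replicate 3 was above both other controls for 4. The marker sums of control replicate 3 that lay outside the other controls are given above for microglia, cones, Muller glia, amacrine, ganglion and multiciliated cells. Its sums were also below both others for rods (146586 against 188120 and 175890 CPM) and bipolar cells (392 against 488 and 436 CPM). The same held for horizontal cells (1.89 against 4.38 and 5.30 CPM) and pigment epithelium (5.18 against 16.4 and 17.4 CPM). The part of these cells was not tested, and neither was that of Rfx2.

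Carriers of lipid-modified cargo had the highest median of the 7 sets, 0.33, with all 5 estimates above 0 under each of the 3 scalings run, and 0 passed. Of the 5, Rp2 alone changed sign under other settings, in 2 of 18. Unc119, the carrier of the transducin alpha subunit, was the most abundant of the 43 genes, at 1078, 1006 and 941 CPM with the Nr2e3 guide and 1008, 988 and 841 CPM with the control guide. The groups overlapped, with a log2 fold change of 0.09 (SE 0.13) and a 95% interval from -0.22 to 0.40. Pde6d, the carrier of prenylated proteins such as phosphodiesterase subunits, was at 58.9, 54.4 and 43.9 CPM with the Nr2e3 guide and 38.7, 34.8 and 25.3 CPM with the control guide. All guide libraries were above all controls, the log2 fold change was 0.67 (1.59-fold, SE 0.21, 95% interval 0.19 to 1.15), the largest of the 43, and the adjusted p was 0.543.

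Arl3, which releases cargo from both carriers, was at 587, 612 and 466 CPM with the Nr2e3 guide and 481, 464 and 382 CPM with the control guide, with guide replicate 3 inside the control range (0.33, SE 0.16, adjusted p = 0.932). Arl13b, the exchange factor that activates ARL3, was at 42.0 ± 9.14 and 32.6 ± 4.73 CPM (0.37, SE 0.21). Rp2, the X-linked GTPase-activating protein that switches ARL3 off, was low, at 5.38, 9.44 and 5.27 CPM with the Nr2e3 guide and 4.64, 5.68 and 7.00 CPM with the control guide (0.21, SE 0.33). For these carriers, replicate 3 had the lowest value of its group for Unc119, Arl3, Arl13b and Pde6d in guide and control alike.

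Summed over each set, the levels differed little between groups. The 43 genes together took 5515 ± 330 CPM with the Nr2e3 guide and 5168 ± 276 CPM with the control guide (mean ± SD, n = 3 each). Lipidated cargo genes summed to 1664 ± 154 and 1459 ± 154 CPM, and BBSome genes to 1657 ± 157 and 1584 ± 209 CPM. IFT-B genes summed to 674 ± 19.8 and 629 ± 20.2 CPM, with the lowest guide library (652.7 CPM) just above the highest control library (652.1 CPM). IFT-A genes summed to 199 ± 13.8 and 217 ± 10.4 CPM and motors to 155 ± 15.1 and 171 ± 17.0 CPM.

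**Figure D4:**
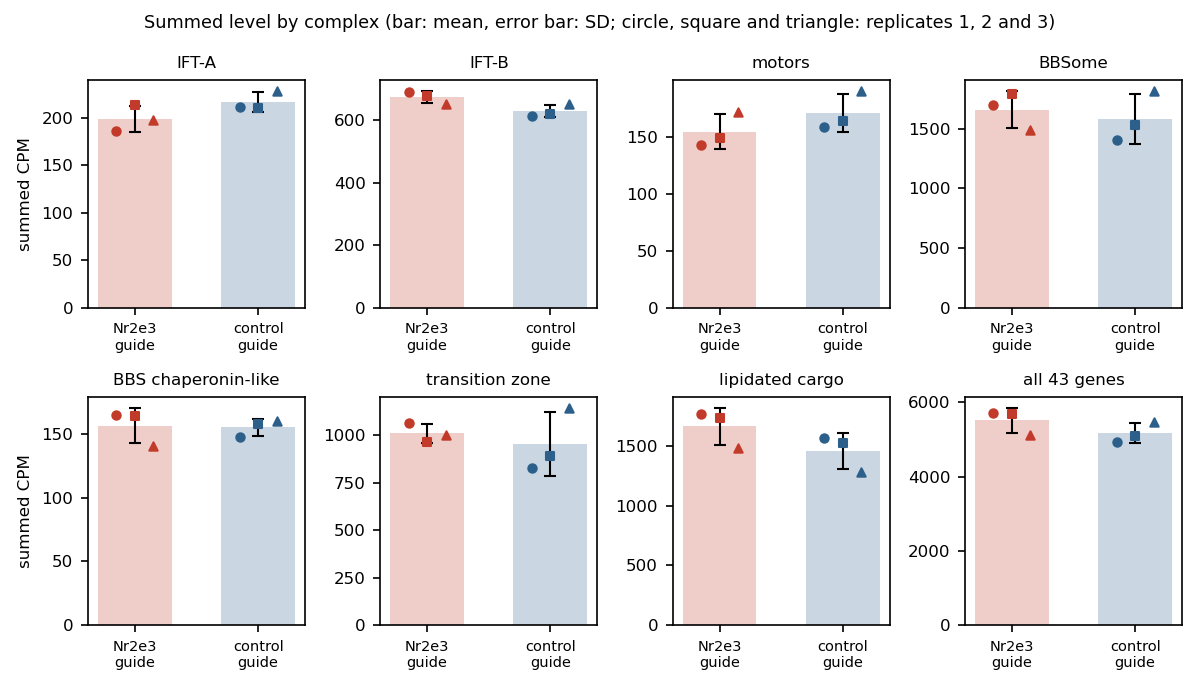
Summed CPM of each set of genes by group, with bars for the mean of 3 libraries, error bars for the SD, and circles, squares and triangles for replicates 1, 2 and 3. The ratio of group means runs from 0.904 for motors to 1.14 for lipidated cargo genes, and the libraries of the groups overlap in every panel other than IFT-B, where they are separate by less than 1 CPM.

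Compared per kilobase of annotated exon, the level of the 43 genes, as a mean over the 6 libraries, covered a range from 0.955 CPM per kilobase for Rpgrip1l to 399 for Unc119. Arl6 (219), Arl3 (200), Fam161a (85.8) and Bbs4 (61.8) followed Unc119. Subunits of the same complex were far from even, since within the BBSome the level ran from 4.28 for Bbs1 to 61.8 for Bbs4, with Bbs5 at 61.1, Ttc8 at 52.2, Bbs9 at 29.7, Bbs2 at 26.2 and Bbs7 at 25.2. Within IFT-B it ran from 5.95 for Ift80 to 41.8 for Ift20. Exon length counts every annotated transcript of a gene, so a gene with long and little-used transcripts appears lower.

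**Figure D5:**
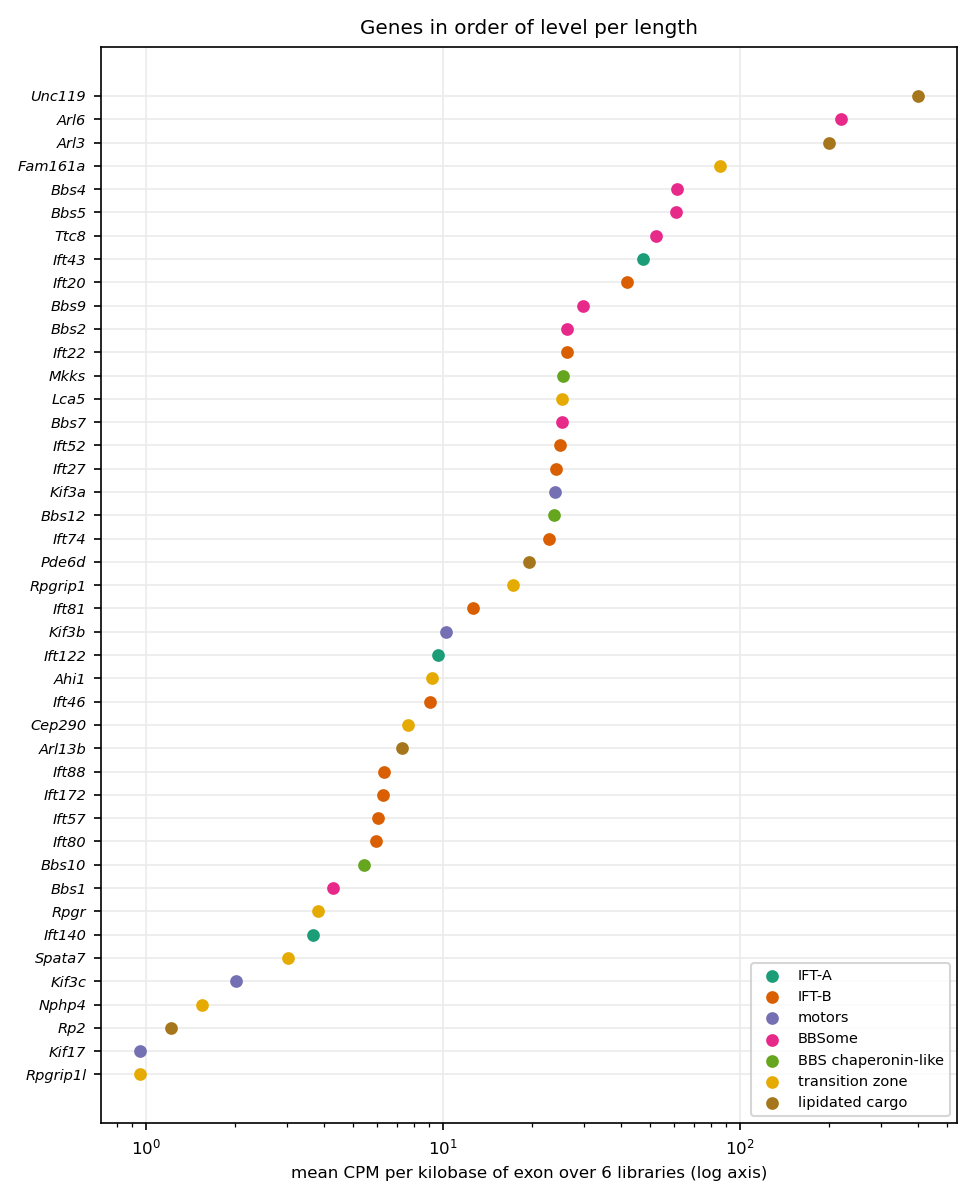
The 43 genes in order of mean CPM per kilobase of exon over the 6 libraries, on a log axis, coloured by set. Unc119, Arl6 and Arl3 are at 200 or more, and Rpgrip1l and Kif17 are under 1.

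Leaving out both replicate 3 libraries, a setting that compares 2 mice with 2, left 0 of the 43 genes past an adjusted p of 0.05 (background 0.43%) and 16 (37.2%) at an unadjusted p under 0.05, against a background of 14.3%. Of these 16, 13 had higher means in guide libraries (background 6.93%) and 3 lower, the 3 being Ift122 (-0.47), Ift46 (-0.67) and Kif3a (-0.38). Pde6d had the lowest adjusted p there, 0.169 (log2 fold change 0.63, SE 0.14), followed by Ift122 with 0.188. The median of the 43 was 0.21 and that of all genes 0.01. This setting gave the highest count at an unadjusted p under 0.05 of all settings run. Without control replicate 3 alone, 5 of the 43 were under 0.05 by edgeR (over all genes 1530 of 17797). Without guide replicate 3 alone there were 11 (over all genes 1730 of 17914), and without any other single library 1 to 3.

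Other genes of the same machinery came from a wider list of 84, of which 80 passed the count filter. By edgeR 0 of the 80 passed, as by DESeq2 and limma-voom. An unadjusted p under 0.05 was found for 6 of them (7.5%), against 5.69% over all genes. Tmem237, a transition zone membrane protein, was at 437, 442 and 452 CPM with the Nr2e3 guide and 351, 330 and 348 CPM with the control guide, with no overlap (0.37, SE 0.11, adjusted p = 0.520). Rfx5, of the RFX family and best known for antigen presentation genes, was at 8.59 ± 1.37 against 4.41 ± 0.951 CPM (0.96, SE 0.28, adjusted p = 0.508). Rab3ip, the exchange factor of RAB8, had a log2 fold change of 0.54 (SE 0.22).

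The 3 with lower means in guide libraries were Trim32, a ubiquitin ligase also listed as a BBS gene, at 28.8 ± 7.68 against 45.0 ± 4.06 CPM (-0.64, SE 0.21), Cilk1, a ciliary kinase (-0.53, SE 0.17), and Rab8a, a GTPase of vesicle delivery to the cilium (-0.32, SE 0.14). Among the most abundant per kilobase in their subgroups, Cdhr1, a cadherin at the base of the outer segment, was at 1810 ± 222 against 1986 ± 118 CPM, and Cetn2, a centrin of the connecting cilium, at 183 ± 47.9 against 128 ± 24.4 CPM (0.51, SE 0.23, adjusted p = 0.915). The list median was 0.14, with 54 estimates above 0 (67.5%) and 26 below, where all genes tested had a median of -0.01 and 48.5% above 0. These genes too were measured in the same 6 libraries and are not independent of each other.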

How the data were processed

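Each of the 6 libraries has a deposited table of raw read counts per gene symbol. The submitters' processing notes name HTSeq 0.12.4, STAR 2.7.3a, DESeq2 1.42.0, cutadapt and build GRCm38 (mm10). Neither gene annotation nor strand option is stated there, and per the labels' protocols the SMARTer Ultra Low kit was used, which does not mark strand. Entries naming no gene (21.6 to 23.7% of counts) were left out.

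The 3 guide and 3 control libraries were set against each other in edgeR 4.0.16 under R 4.3.3 (TMM factors, filterByExpr with a minimum count of 10, quasi-likelihood F test on group, Benjamini-Hochberg adjustment over all genes tested, threshold 0.05), after a test on simulated data. CPM uses the TMM library size, SE is the log2 fold change over the square root of F, and its 95% interval is not adjusted for many genes. DESeq2 1.42.0 and limma 3.58.1 were alternatives. No pair of libraries of a group agreed within sampling noise. The submitters' labels give separate mice.

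The 43 genes, the lists and the rule for naming genes were chosen with earlier results of these data known. In each set, the rule takes the gene highest per kilobase, the one of lowest p and those at an unadjusted p under 0.05 for values per library. Genes of the wider list are named at an unadjusted p under 0.05 or as the highest of their subgroup. Exon lengths and overlaps come from GENCODE M21. Of the wider list, 2 symbols matched no gene.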

Additional observations from a re-analysis of the deposited data

How the results depend on the processing

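Under each of 18 alternatives, 0 of the 43 genes and 0 of the wider list passed. The lowest adjusted p of any of the 43 was 0.166, for Lca5 with limma-voom. Of the 43, 22 kept the sign of their log2 fold change in every setting run and 21 did not, none of them past the threshold. Robust estimation and the adjusted p under 0.1, both among the 18, kept the main fold changes, so no sign could change in them. The count over all genes moved from 59 to 243 with DESeq2 without a count filter (32206 genes), 271 with DESeq2 on the genes edgeR tested, a setting chosen after seeing the data, 179 with limma-voom, 155 with edgeR without the count filter, 6 with sex as a term and 91 at an adjusted p under 0.1. It was 14 to 89 when single libraries were left out: 89 without control replicate 3, and 20, 21 and 17 without guide replicates 1, 2 and 3 and 14 and 15 without control replicates 1 and 2. With the replicate number as a block it was 32. The labels give no shared source to same-numbered mice, and the deviations of same-numbered libraries correlated at 0.23, -0.11 and 0.25 and guide replicate 1 correlated best with control replicate 2. The median of the motors moved from -0.22 to 0.11 without control replicate 3, and that of the transition zone genes from 0.00 to 0.31, and that of all 43 from 0.03 to 0.16; the cause was not tested. Median shifts of all genes between scalings were under 0.1 on the log2 scale. With 3 mice per group, the 95% interval excludes a 1.5-fold difference for 17 of the 43 genes. Guide and sex are partly confounded, as the only 2 female mice had the Nr2e3 guide.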
